A study of Homo sapiens with 12 samples.

Results

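GDF15 and 8 genes of the TGF-beta superfamily and its signal path were followed: the ligand genes TGFB1, TGFB2, INHBA, INHBE and BMP4, the SMAD genes SMAD3 and SMAD7, and the target gene TGFBI. They were taken by symbol from a table of 62700 genes and each symbol matched 1 row, so the set holds 9 genes, chosen by name and not by level. The cells were HCT116 TIM-mAID, a line from a human colorectal carcinoma whose TIMELESS, a protein that protects replication forks, has an auxin-inducible degron knocked in by CRISPR. The 4 groups of 3 libraries, all taken after 40 h, received 5-Ph-IAA with ATRi (5-Ph-IAA/ATRi, called the combination), ATRi alone, 5-Ph-IAA alone, or the solvent DMSO. 5-Ph-IAA, at 1 µM, is the auxin analogue that triggers destruction of degron-tagged protein, and ATRi is ceralasertib, at 1 µM, an inhibitor of the ATR kinase that signals stalled forks. All groups carry the degron knock-in, so DMSO stands for tagged cells in solvent and not for unmodified cells. The study calls the 3 libraries of a group biological replicates, numbered as sets 1 to 3.

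TGF-beta superfamily ligands are secreted dimers that bind pairs of type I and type II receptor kinases, which phosphorylate receptor SMAD proteins that then enter the nucleus with SMAD4. Inhibitory SMAD proteins, secreted antagonists and latency proteins limit the signal. HCT116 cells are known for a frameshifted TGFBR2, the type II receptor for TGF-beta, and for intact p53. GDF15 is a distant family member that many stressed cells secrete. Its own receptor is GFRAL with the co-receptor RET, and its gene is known as a target of p53 and of the integrated stress response.

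The promoters of the 3 genes that rose with the combination are shown because these are the genes the results turn on. Each line holds the 250 bases before the annotated gene start, on the plus strand, from the RefSeq promoter table of GRCh38.p14. Capitals mark every match to the motifs searched on both strands.
GDF15, chr19:18385908-18386157: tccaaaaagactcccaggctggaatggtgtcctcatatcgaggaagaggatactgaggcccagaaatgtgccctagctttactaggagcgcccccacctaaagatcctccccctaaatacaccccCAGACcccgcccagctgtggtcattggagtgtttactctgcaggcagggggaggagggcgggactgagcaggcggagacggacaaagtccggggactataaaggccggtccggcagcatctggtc
TGFB2, chr1:218345086-218345335: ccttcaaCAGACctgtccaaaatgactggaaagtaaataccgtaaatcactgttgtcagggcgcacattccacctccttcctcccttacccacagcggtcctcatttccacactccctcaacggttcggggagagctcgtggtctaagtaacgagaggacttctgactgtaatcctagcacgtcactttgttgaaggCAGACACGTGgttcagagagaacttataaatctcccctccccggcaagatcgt
SMAD3, chr15:67065352-67065601: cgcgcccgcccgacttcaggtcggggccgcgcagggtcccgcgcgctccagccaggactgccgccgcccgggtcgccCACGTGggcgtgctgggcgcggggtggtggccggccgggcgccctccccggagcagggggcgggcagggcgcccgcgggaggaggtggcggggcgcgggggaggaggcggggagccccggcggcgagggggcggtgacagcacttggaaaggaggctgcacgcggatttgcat
Motifs searched were the SMAD-binding core CAGAC, the AP-1 site TGANTCA, the ATF4-C/EBP composite TGATGNAA, the cyclic AMP response element TGACGTCA, the E-box CACGTG and the p53 half-site. GDF15 held 1 CAGAC, starting 125 bases before the gene start. TGFB2 held CAGAC at 243 and 53 bases and CACGTG at 49 bases, and the last pair share their overlapping bases. SMAD3 held CACGTG at 173 bases and no CAGAC. Of 35116 promoters of the same length in the table, 38.0% held CAGAC, 6.57% TGANTCA, 3.14% TGATGNAA, 1.65% TGACGTCA, 6.34% CACGTG and 5.57% the p53 half-site. A match describes the letters of this window and is not a measured site, and the absence of a match says only that these letters are not in it. A promoter entry at the annotated gene start was found for 6 of the 9 genes.

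Each library held 27695875 to 34704711 counts. Of the 62700 genes, 18049 passed a filter on low counts and were tested. Transcripts of mitochondrial genes took 6.63% to 14.9% of the counts, highest in DMSO 2 and lowest in DMSO 3, and averaged 12.2% ± 1.63 with the combination, 10.6% ± 3.0 with ATRi, 10.1% ± 3.397 with 5-Ph-IAA and 9.81% ± 4.49 with DMSO (SD, n = 3 each). The first component of the deviations within groups held 67.7% of that variance. It was computed from these same counts, so fits that use it as a covariate are not independent checks of the calls. The line expressed epithelial genes: 6 of 8 markers listed for colorectal epithelium reached 1 CPM in every library. VIL1 (at most 0.69 CPM) and CEACAM5 (at most 0.036 CPM) were near 0, so these levels do not settle the colorectal type given by the label. Of the 6 fibroblast markers only COL1A1, at 35.1 to 106 CPM, reached that level, 0 of 3 endothelial and 0 of 4 leukocyte markers did, and the leukocyte sum stayed at or below 0.945 CPM. In bulk RNA, fewer cells of a kind and less RNA per cell cannot be told apart.

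Levels differed widely between the 9 genes. Per length, as TPM (counts divided by the exon length of each gene and scaled to the same total in every library), DMSO libraries averaged 552.6 ± 191.3 for GDF15, 45.9 ± 11.95 for TGFB1, 28.3 ± 3.59 for SMAD3 and 20.3 ± 9.40 for BMP4 (SD, n = 3 each). Far lower came SMAD7 with 0.671 ± 0.362, INHBE with 0.545 ± 0.381, TGFB2 with 0.0871 ± 0.0150, INHBA with 0.0392 ± 0.00372 and TGFBI with 0.0202 ± 0.0180. In this order the DMSO ranges of SMAD3 and BMP4 overlapped, as did those of SMAD7 and INHBE. The DMSO ranges of the other neighbours did not overlap. INHBA, the activin A subunit gene, had 1 to 7 counts per library. TGFBI, which encodes an extracellular matrix protein induced by TGF-beta, had 0 to 5. Neither passed the filter, so 7 of the 9 genes were tested.

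**Figure D1:**
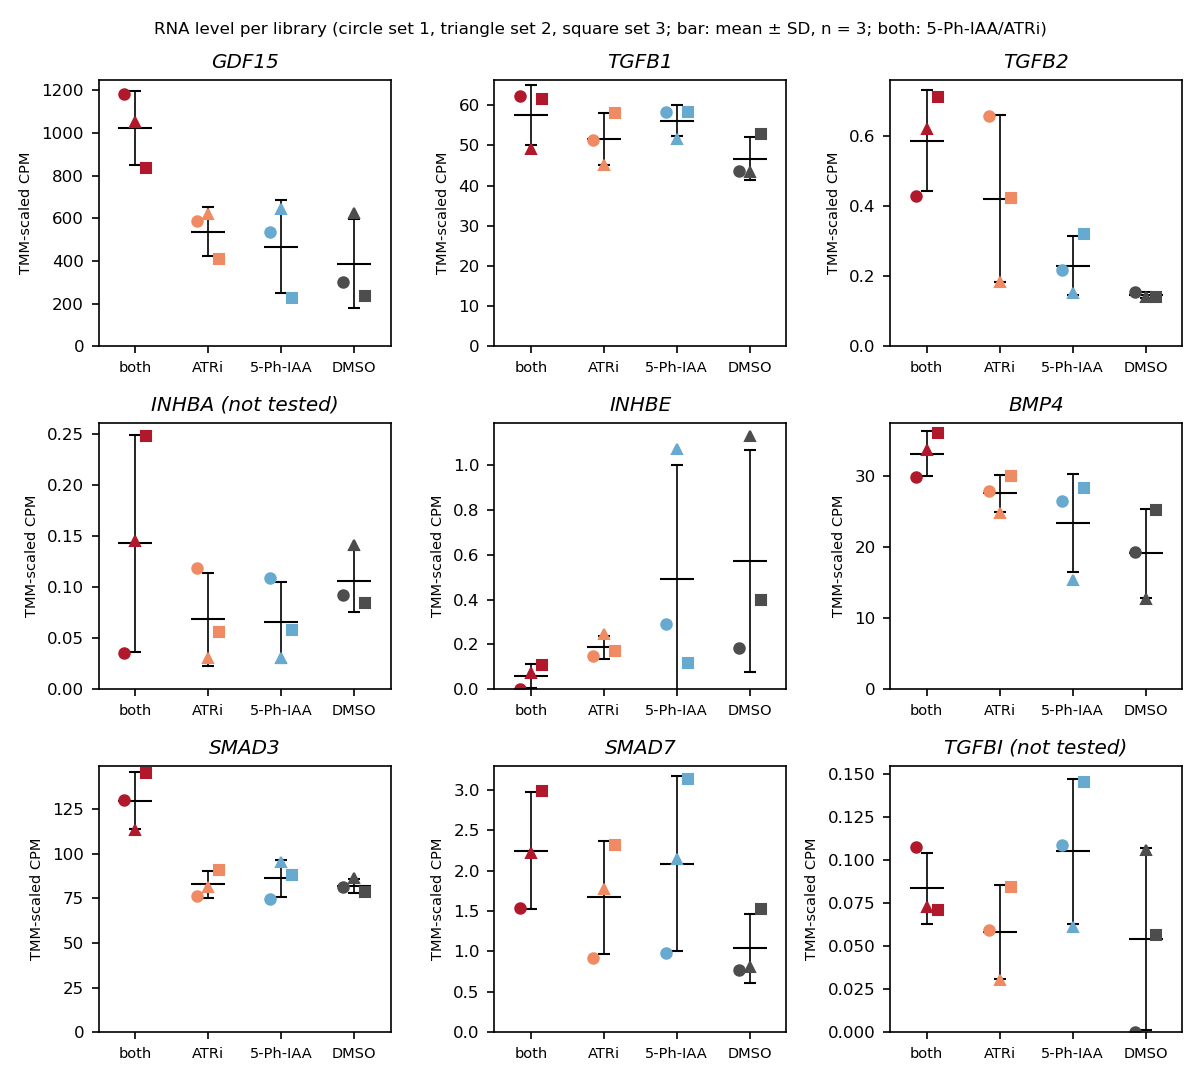
RNA level (TMM-scaled CPM) of the 9 genes in each library, with circles for set 1, triangles for set 2 and squares for set 3, and bars for the mean ± SD of 3 libraries. In GDF15 and SMAD3 all 3 combination points lie above every other point, in TGFB2 above the 5-Ph-IAA and DMSO points, and INHBA and TGFBI rest on 0 to 7 counts per library. For INHBE the SD of 5-Ph-IAA reaches below the axis, which starts at 0.

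The first comparison asks which of these genes differ when loss of TIMELESS is combined with ATR inhibition. With the combination, GDF15, TGFB2 and SMAD3 rose against DMSO, and 3 of the 7 tested genes passed, all higher. Over all tested genes 13.1% passed in either direction and 6.24% passed as higher. TGFB1, INHBE, BMP4 and SMAD7 did not pass in this fit, which has no term for the set. With the set as a replicate block they passed (edgeR adjusted p = 0.0383, 0.0154, 0.00765 and 0.00584), among 4569 genes in all. The median log2 fold change of the 7 genes was 0.79, beside -0.02 over all tested genes. No DMSO library held 10 counts of TGFB2 and no combination library held 10 of INHBE, so both passed the filter only through other groups, and nothing is drawn from these counts and medians. Without a count filter, with all genes in the test, TGFB2 passed (edgeR adjusted p = 0.0363).

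GDF15 (ENSG00000130513.7, chr19:18386158-18389176, plus strand) had 1182, 1052 and 838.3 CPM in sets 1, 2 and 3 of the combination and 587.7, 619.7 and 407.4 CPM with ATRi. In 5-Ph-IAA libraries it had 535.6, 642.3 and 226.6 CPM, and in DMSO libraries 301.7, 626.8 and 235.9 CPM. Every combination library lay above all 9 others, and the ranges with ATRi, 5-Ph-IAA and DMSO overlapped. Set 2 was the highest library in the ATRi, 5-Ph-IAA and DMSO groups, and set 3 was the lowest library of every group. The combination was 2.64-fold above DMSO, a log2 fold change of 1.40 ± 0.41 (SE), which passed narrowly by edgeR's quasi-likelihood test with Benjamini-Hochberg adjustment (adjusted p = 0.0440).

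The call depended on single libraries. It was kept in 10 of 11 other settings, among them DESeq2 (adjusted p = 0.00528), limma-voom (0.0361) and edgeR without a count filter (0.00538). It was lost in the fit of the compared groups alone (edgeR adjusted p = 0.0550) and in 9 of 12 refits without 1 library: without combination 1, 2 or 3 (adjusted p = 0.129, 0.109 and 0.0733 by edgeR), without ATRi 1, 2 or 3 (0.0580, 0.0608 and 0.0538), without 5-Ph-IAA 1 (0.0542) and without DMSO 1 or 3 (0.156 and 0.124). The log2 fold change stayed between 1.13 and 1.93 in these refits. GDF15 also moved with the mitochondrial share: within groups, Pearson's r between both was 0.86 over the 12 libraries, which share their depth and group means. With that share as a covariate the log2 fold change was 1.15 (edgeR adjusted p = 0.00196). With 8 libraries, leaving out the highest mitochondrial share of each group, it was 1.82 (edgeR adjusted p = 0.0490).

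**Figure D2:**
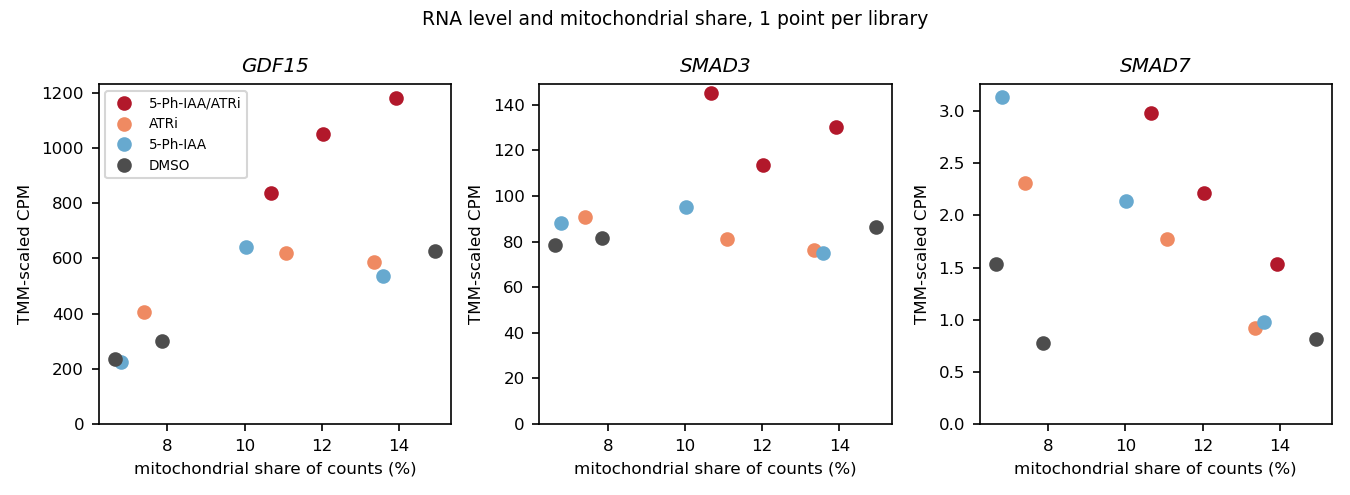
RNA level (TMM-scaled CPM) of GDF15, SMAD3 and SMAD7 against the mitochondrial share of counts (%), 1 point per library. GDF15 points climb with the share within groups (r = 0.86), SMAD7 points descend (r = -0.80), and the 3 combination points of GDF15 and SMAD3 lie above the others.

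TGFB1 (ENSG00000105329.11, chr19:41330323-41353922, minus strand), the most widely expressed TGF-beta ligand gene, had 62.2, 49.0 and 61.6 CPM in combination libraries and 43.6, 43.5 and 52.8 CPM in DMSO libraries. The groups overlapped, since set 2 of the combination lay below set 3 of DMSO. The log2 fold change was 0.30 ± 0.14, with an edgeR adjusted p of 0.192, and it passed with the first within-group component as a covariate (adjusted p = 0.0487). Exons of HNRNPUL1 overlap TGFB1 on the other strand, with 2952 to 7713 counts per library. The library kit was directional, but the counting's strand setting is not stated in what was used here. TGFB1 values are therefore uncertain.

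TGFB2 (ENSG00000092969.12, chr1:218345336-218444619, plus strand), a second TGF-beta ligand gene, had only 12, 17 and 20 counts in combination libraries and 22, 6 and 15 with ATRi. It had 6, 5 and 11 counts with 5-Ph-IAA, and 5, 4 and 5 in DMSO libraries. As CPM the combination averaged 0.586 ± 0.143, ATRi 0.421 ± 0.237, 5-Ph-IAA 0.230 ± 0.0840 and DMSO 0.146 ± 0.00766 (SD, n = 3 each). All combination libraries and all ATRi libraries lay above the 3 DMSO libraries, and the ATRi libraries reached from the 5-Ph-IAA range into the combination range. Of the 7 tested genes TGFB2 was the 1 with all ATRi libraries above all DMSO libraries, beside 4.73% of all tested genes. Nothing is drawn from this, since TGFB2 passed the filter only through groups where it was higher.

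TGFB2 was 3.94-fold higher with the combination than with DMSO, a log2 fold change of 1.98 ± 0.49 (edgeR adjusted p = 0.0224). It entered this test only through groups where it was higher, and it also passed without a count filter (edgeR adjusted p = 0.0363). The call was lost without combination 2 or 3 (edgeR adjusted p = 0.0688 and 0.0827) and without DMSO 1, 2 or 3 (0.0753, 0.0527 and 0.0676), and with 8 libraries (0.0662). The non-coding TGFB2-OT1 lies on the same strand within the gene and had at most 6.69 counts in a library.

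INHBE (ENSG00000139269.3, chr12:57455307-57458025, plus strand), the subunit gene of activin E, had its lowest values with the combination but did not pass. It had 0, 2 and 3 counts in combination libraries and 5, 8 and 6 with ATRi, while 5-Ph-IAA libraries had 8, 35 and 4 and DMSO libraries 6, 32 and 14. Every combination library lay below every ATRi, 5-Ph-IAA and DMSO library, and set 2 stood far above sets 1 and 3 in the 5-Ph-IAA and DMSO groups. The fitted log2 fold change against DMSO was -3.15 ± 1.04 (edgeR adjusted p = 0.0705). The adjusted p was under the threshold without 5-Ph-IAA 2 or 3 (edgeR adjusted p = 0.0428 and 0.0451) and without a count filter, in DESeq2 and with the mitochondrial share as a covariate (adjusted p = 0.0276, 0.0219 and 0.0175). With 8 libraries, which leave out DMSO 2, it was -1.66 (edgeR adjusted p = 0.412).

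BMP4 (ENSG00000125378.16, chr14:53949736-53956891, minus strand), a bone morphogenetic protein that signals through SMAD1, SMAD5 and SMAD9, had 29.8, 33.6 and 35.97 CPM in combination libraries. It had 27.9, 24.7 and 29.9 CPM with ATRi, 26.4, 15.4 and 28.2 CPM with 5-Ph-IAA, and 19.4, 12.7 and 25.3 CPM in DMSO libraries. All combination libraries lay above all DMSO and 5-Ph-IAA libraries, with set 2 the lowest of the ATRi, 5-Ph-IAA and DMSO groups. The log2 fold change against DMSO was 0.79 ± 0.26 and did not pass (edgeR adjusted p = 0.0671). It passed without DMSO 3 or 5-Ph-IAA 2 (edgeR adjusted p = 0.0330 and 0.0383) and without a count filter, in DESeq2 and with the mitochondrial share as a covariate (adjusted p = 0.0498, 0.0269 and 0.0049).

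SMAD3 (ENSG00000166949.17, chr15:67065602-67195169, plus strand), a receptor SMAD of the TGF-beta and activin branch, had 130.1, 113.4 and 145.3 CPM in combination libraries. ATRi libraries had 76.3, 81.2 and 90.9 CPM, 5-Ph-IAA libraries 74.9, 95.3 and 88.2 CPM, and DMSO libraries 81.4, 86.3 and 78.5 CPM. The combination stood alone, and the other 3 groups overlapped. SMAD3 was 1.58-fold above DMSO, a log2 fold change of 0.66 ± 0.13 (edgeR adjusted p = 0.00766). This call was kept in all 12 refits without 1 library, with log2 fold changes of 0.57 to 0.75 and adjusted p at most 0.0413, and in each of the other 11 settings run. Within groups its r with the mitochondrial share was -0.32 over 12 libraries. The antisense AC087482.1 overlaps exons of SMAD3 and had 1 to 11 counts per library.

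SMAD7 (ENSG00000101665.10, chr18:48919853-48950965, minus strand) is an inhibitory SMAD that blocks the type I receptor. It had 1.54, 2.22 and 2.98 CPM in combination libraries and 0.925, 1.77 and 2.31 CPM with ATRi. With 5-Ph-IAA it had 0.981, 2.14 and 3.14 CPM, and in DMSO libraries 0.773, 0.811 and 1.53 CPM. Combination and DMSO libraries were separated by a narrow gap, and set 1 was the lowest of each group. The log2 fold change against DMSO was 1.104 ± 0.48 (edgeR adjusted p = 0.162). Within groups SMAD7 ran against the mitochondrial share (r = -0.80, 12 libraries), and with that share as a covariate the log2 fold change was 1.53 (edgeR adjusted p = 0.00262). Across the 7 tested genes, 5 had all combination libraries above all DMSO libraries and 1, INHBE, had them all below, against 16.4% and 15.9% of all tested genes. TGFB2 and INHBE, which are among them, passed the filter only through groups where they were higher. The genes were also chosen with earlier results of these data known, so nothing is drawn from these counts.

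**Figure D3:**
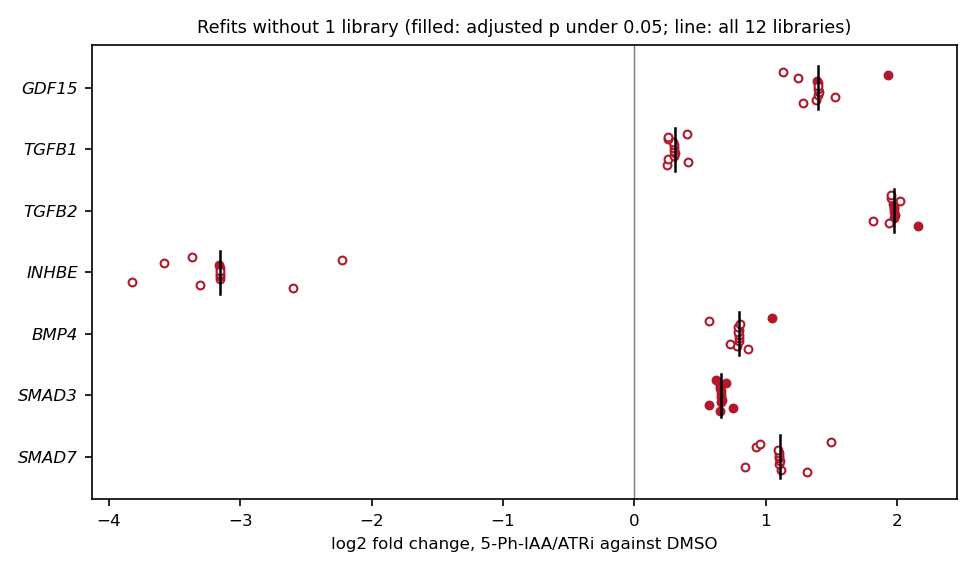
Log2 fold change of the 7 tested genes, combination against DMSO, in 12 refits that each leave out 1 library; filled points have an adjusted p under 0.05 and the black line is the value with all 12 libraries. All 12 points of SMAD3 are filled, against 3 of GDF15, and all points of INHBE lie below 0.

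Set against each single compound, the combination gave a higher level of SMAD3. Its log2 fold change was 0.65 ± 0.13 against ATRi (edgeR adjusted p = 0.0255) and 0.59 ± 0.13 against 5-Ph-IAA (adjusted p = 0.0178), and it was the 1 gene of 7 that passed in either comparison. Over all tested genes 3.51% passed against ATRi, 1.63% as higher and 1.88% as lower, and 9.41% against 5-Ph-IAA, 4.38% as higher and 5.04% as lower. The comparisons share the 3 combination libraries. The call against ATRi was lost without combination 1 or 3 (edgeR adjusted p = 0.0981 and 0.12), without ATRi 1, 2 or 3 (0.103, 0.0911 and 0.0558) without DMSO 1 (0.0520), without a count filter (0.0622) and with 8 libraries (0.145). The call against 5-Ph-IAA was lost without combination 1 or 3 (0.0654 and 0.0869) without 5-Ph-IAA 1 (0.0608), without a count filter (0.0598), in the fit of the compared groups (0.0677) and with 8 libraries (0.125).

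GDF15 was 0.93 ± 0.41 above ATRi and 1.13 ± 0.41 above 5-Ph-IAA on the log2 scale (edgeR adjusted p = 0.277 and 0.115), and neither passed. Other settings passed GDF15. Against ATRi these were the fit of the compared groups and the set block (edgeR adjusted p = 0.0345 and 0.0318). Against 5-Ph-IAA they were the test without a count filter, DESeq2 and the set block (adjusted p = 0.0404, 0.0407 and 0.00601). The mitochondrial covariate passed it in both comparisons (0.0471 and 0.0110), as did the first within-group component as a covariate (0.00311 and 0.000298). That component comes from the deviations of these same counts, so nothing is drawn from passing with it. Its 95% intervals, 0.04 to 1.82 and 0.24 to 2.02, are wide. TGFB2 had 0.47 ± 0.44 against ATRi and 1.33 ± 0.47 against 5-Ph-IAA (adjusted p = 0.686 and 0.107). INHBE had -1.58 ± 1.13 and -2.96 ± 1.05 (adjusted p = 0.561 and 0.108). Against 5-Ph-IAA INHBE passed in DESeq2 (adjusted p = 0.0430) and, by edgeR, with the set block and the mitochondrial covariate (0.0307 and 0.0248). With the first within-group component as a covariate, INHBE and TGFB2 passed against 5-Ph-IAA (edgeR adjusted p = 0.0376 and 0.0453). Against ATRi, all combination libraries of GDF15 and SMAD3 lay above all ATRi libraries, beside 12.9% of all tested genes. Against 5-Ph-IAA this held for GDF15, TGFB2, BMP4 and SMAD3, beside 13.6%. INHBE had all combination libraries below all libraries of either compound, beside 14% of all tested genes in each comparison. TGFB2 and INHBE passed the filter only through groups where they were higher, so nothing is drawn from these counts.

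Neither compound alone moved any of these genes past the threshold. With ATRi against DMSO, edgeR, DESeq2 and limma-voom each called 0 of 7, beside 0.0665% of all tested genes called by edgeR. TGFB2 was the 1 gene with an unadjusted p under 0.05 (log2 fold change 1.51 ± 0.50, edgeR adjusted p = 0.731). Over all tested genes 877 of 18049 had such a p. GDF15 had 0.47 ± 0.40, BMP4 0.53 ± 0.26 and SMAD3 0.01 ± 0.13. With 5-Ph-IAA against DMSO all 3 tools again called 0 of 7, beside 0.00554% of all tested genes called by edgeR. An unadjusted p under 0.05 by edgeR was found for 0 of the 7, beside 239 of the 18049 tested genes. GDF15 had 0.27 ± 0.40, SMAD7 1.00 ± 0.48 and SMAD3 0.07 ± 0.13. For SMAD3 the 95% intervals ran from -0.28 to 0.30 with ATRi and from -0.22 to 0.36 with 5-Ph-IAA. All 3 comparisons against DMSO share the same DMSO libraries.

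The interaction asks whether the log2 change with the combination differs from the sum of the changes with each compound. EdgeR, DESeq2 and limma-voom called 0 of 7 genes, beside 0.0776% of all tested genes by edgeR. SMAD3 was the 1 gene with an unadjusted p under 0.05, at 0.58 ± 0.19 (edgeR adjusted p = 0.456). Over all tested genes 1317 of 18049 had such a p. For GDF15 the value was 0.66 ± 0.57 (adjusted p = 0.998), with a 95% interval from -0.59 to 1.91. A departure from the sum was not detected for any of the 7 genes.

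**Figure D4:**
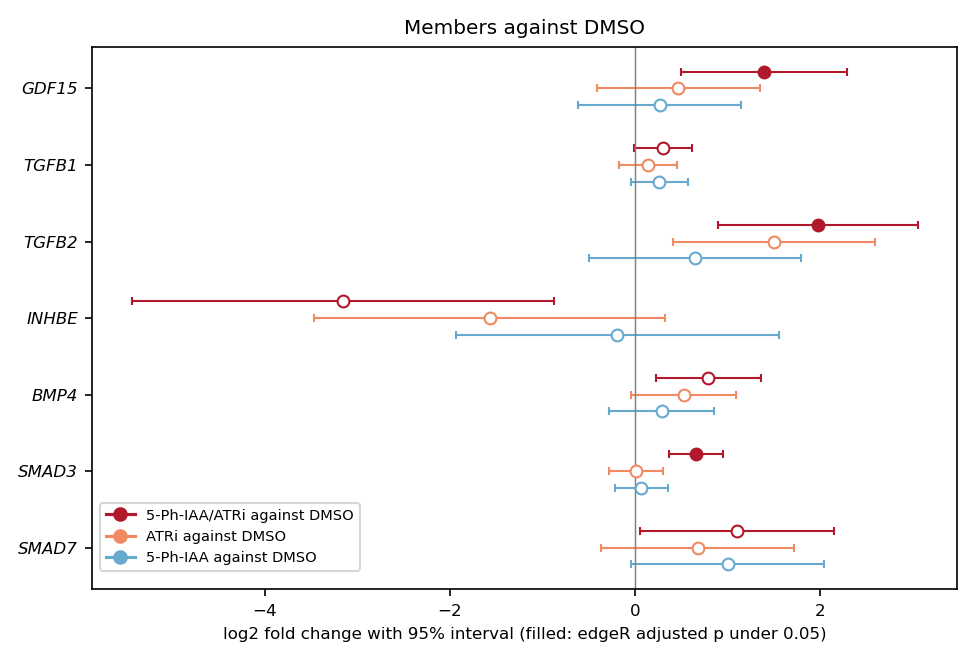
Log2 fold change of the 7 tested genes with 95% interval for the combination, ATRi and 5-Ph-IAA, each against the same 3 DMSO libraries; filled points have an edgeR adjusted p under 0.05. Filled points appear for GDF15, TGFB2 and SMAD3 with the combination, and every interval of ATRi and 5-Ph-IAA but that of TGFB2 with ATRi includes 0.

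The other genes of the pathway were taken from a list of 77 by role, of which 62 were tested. With the combination against DMSO, 9 were higher, 2 were lower and 51 did not pass, and the median log2 fold change was 0.09, beside -0.02 over all tested genes. The share called, 11 of 62, can be read beside the 13.1% of all tested genes, 6.24% higher and 6.89% lower. Antagonists held 5 calls among 12 tested genes, target genes 4 among 12, ligands 2 among 12 and latency genes 1 among 8, with LTBP2 counted in 2 roles.

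Among 12 tested ligand genes of 22 listed, BMP7, a bone morphogenetic protein, rose to 17.8 ± 0.846 CPM with the combination, against 12.5 ± 1.26 CPM with DMSO (log2 fold change 0.52 ± 0.12, edgeR adjusted p = 0.0153). BMP6, an iron-regulating bone morphogenetic protein, fell to 0.743 ± 0.306 CPM with the combination, against 2.16 ± 0.590 CPM with DMSO (-1.54 ± 0.36, adjusted p = 0.0157). The call of BMP7 was lost without combination 1 or 3 (edgeR adjusted p = 0.0659 and 0.0585), without a count filter (0.144), in the fit of the compared groups (0.0533) and with 8 libraries (0.125). That of BMP6 was lost without combination 3 or DMSO 1 (0.0525 and 0.0617) and in the fit of the compared groups (0.0560). GDF11, a close relative of myostatin, had 0.91 ± 0.28 (adjusted p = 0.0533), and AMH, the anti-Müllerian hormone gene, -1.06 ± 0.42 (adjusted p = 0.124). They passed in 6 and 5 of 11 other settings.

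Receptors and receptor SMADs other than SMAD3 did not pass in either direction. Of 13 tested receptor genes 0 were called by edgeR, DESeq2 or limma-voom, and 0 had an unadjusted p under 0.05 by edgeR. These counts, and those of the SMAD genes below, can be read beside all tested genes. Of those edgeR called 13.1%, and 4839 of 18049 had an unadjusted p under 0.05 by edgeR. TGFBR2 had 45.5, 49.2 and 67.9 CPM in combination libraries and 38.3, 27.1 and 51.4 CPM in DMSO libraries, which overlapped (log2 fold change 0.48 ± 0.33, edgeR adjusted p = 0.404). BMPR2, the main type II receptor for bone morphogenetic proteins, had 0.40 ± 0.21, the activin receptor gene ACVR2B -0.32 ± 0.20 and the type I receptor gene BMPR1A -0.36 ± 0.26. GFRAL, the GDF15 receptor, had 0 to 3 counts per library and was not tested. All 6 other SMAD genes were tested, 0 were called by any of the 3 tools and 0 had an unadjusted p under 0.05 by edgeR: SMAD9 had -0.48 ± 0.26, the inhibitory SMAD6 0.33 ± 0.24, SMAD5 0.25 ± 0.28 and SMAD2 -0.09 ± 0.15. With the mitochondrial share as a covariate TGFBR2, BMPR2, SMAD5 and SMAD6 were called as higher (edgeR adjusted p = 0.00215, 0.00497, 0.00653 and 0.0296), in a fit that called 6449 genes in all. The fit with the first within-group component called 6556 genes in all. In it TGFBR2, BMPR2 and SMAD5 were higher (edgeR adjusted p = 0.00784, 0.00448 and 0.00992). ACVR2B and BMPR1A were lower in that fit (-0.29 and -0.32, edgeR adjusted p = 0.0110 and 0.00860).

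The counts for genes of latency and processing were 1 higher and 7 not passed. LTBP2, a latent TGF-beta binding protein family member of elastic fibres, rose to 11.5 ± 1.89 CPM with the combination, against 4.64 ± 1.52 CPM with DMSO (log2 fold change 1.31 ± 0.25, edgeR adjusted p = 0.00622). LTBP4 and LTBP1, which hold latent TGF-beta in the matrix, had -0.71 ± 0.22 (adjusted p = 0.0553) and -0.90 ± 0.30 (adjusted p = 0.0724), and passed in 7 and 4 of 11 other settings. BMP1, a procollagen protease, had 0.44 ± 0.17 (adjusted p = 0.117).

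Antagonists gave 4 higher genes and 1 lower gene of 12 tested. FSTL3, a secreted follistatin-like protein that binds activin, rose to 39.6 ± 6.95 CPM with the combination, against 20.5 ± 2.08 CPM with DMSO (log2 fold change 0.95 ± 0.19, edgeR adjusted p = 0.00770). BAMBI, a decoy receptor without a kinase domain, rose to 5.02 ± 0.510 CPM with the combination, against 2.44 ± 0.281 CPM with DMSO (1.04 ± 0.21, adjusted p = 0.00778). TGIF2, a corepressor of SMAD complexes, rose to 17.6 ± 0.518 CPM with the combination, against 11.8 ± 0.691 CPM with DMSO (0.58 ± 0.12, adjusted p = 0.00778). In each of the 3 all combination libraries lay above all DMSO libraries, as in 16.4% of all tested genes, and the calls were kept in all 12 refits without 1 library. The call of BAMBI was lost with 8 libraries (edgeR adjusted p = 0.0749) and that of TGIF2 without a count filter (0.0841).

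CHRD, which encodes the bone morphogenetic protein antagonist chordin, fell to 8.40 ± 1.72 CPM with the combination, against 15.5 ± 2.36 CPM with DMSO (-0.88 ± 0.20, edgeR adjusted p = 0.0140), a call lost without combination 1 or 3 (0.0558 and 0.0622) and with 8 libraries (0.132). PMEPA1, an inhibitor that sequesters receptor SMADs and is named here after its value was seen, had 15, 13 and 13 counts in combination libraries and 9, 4 and 2 in DMSO libraries. Its call (1.61 ± 0.48, edgeR adjusted p = 0.0473) was kept in 1 of 12 refits, that without DMSO 1, with adjusted p reaching 0.135. No DMSO library reached 10 counts, so PMEPA1 entered the test through groups where it was higher, and without a count filter the call was lost (edgeR adjusted p = 0.115), as with total counts (0.0516), in the fit of the compared groups (0.101) and with 8 libraries (0.22).

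Target genes gave 4 higher genes of 12 tested, LTBP2 among them. CCN2, a matricellular growth factor gene driven by TGF-beta and by YAP, had 9.88, 8.14 and 11.8 CPM in combination libraries and 1.49, 1.96 and 3.19 CPM with ATRi. It had 0.944, 1.71 and 2.21 CPM with 5-Ph-IAA and 1.42, 2.08 and 1.64 CPM in DMSO libraries. The combination stood far above the other 3 groups, which overlapped. Its log2 fold change was 2.54 ± 0.35 against DMSO (edgeR adjusted p = 0.00100), 2.17 ± 0.34 against ATRi (0.00815) and 2.61 ± 0.35 against 5-Ph-IAA (0.00138), while its interaction of 2.24 ± 0.48 did not pass (0.197).

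SNAI2, a transcription factor gene of epithelial-mesenchymal transition, had 28, 40 and 49 counts in combination libraries and 6, 11 and 2 in DMSO libraries. Its log2 fold change was 2.75 ± 0.54 (edgeR adjusted p = 0.00659), and with CCN2 and LTBP2 it kept its call in all 12 refits. DMSO 1 and 3 held fewer than 10 counts, so SNAI2 passed the filter through libraries of other groups. Its call was kept in the 10 other settings that could test it, the fit without a count filter among them. THBS1, an adhesive glycoprotein that activates latent TGF-beta, had 17.0, 16.3 and 31.2 CPM in combination libraries and 6.0, 2.61 and 8.504 CPM in DMSO libraries. Its log2 fold change was 1.91 ± 0.55 (adjusted p = 0.0408), and the call was lost in 7 of 12 refits: without combination 1, 2 or 3 (0.0718, 0.0703 and 0.15), ATRi 2 (0.0605), 5-Ph-IAA 2 (0.0548) and DMSO 1 or 2 (0.117 and 0.0938). It was also lost with total counts (0.0533) and with 8 libraries (0.0689).

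**Figure D5:**
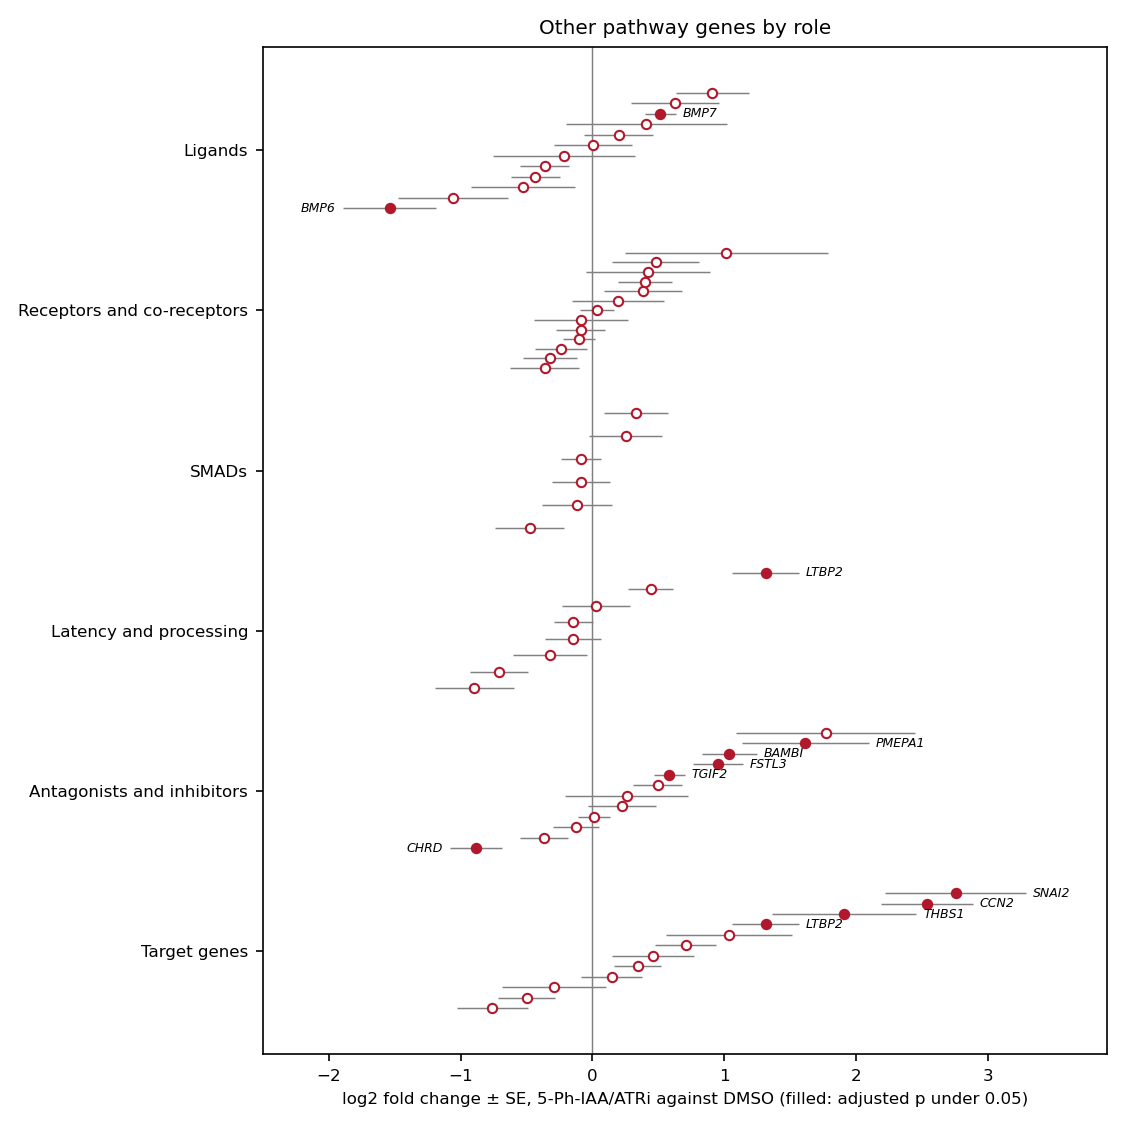
Log2 fold change ± SE of the tested genes of the wider pathway list, combination against DMSO, by role from ligands to target genes; filled points have an edgeR adjusted p under 0.05 and are named. Filled points appear among ligands, latency genes, antagonists and target genes, none among receptors and SMADs, and LTBP2 stands in 2 roles.

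With the combination against ATRi 3 of the 62 passed, beside 3.51% of all tested genes: CCN2 and LTBP2 were higher and CHRD lower. Against 5-Ph-IAA 9 passed, beside 9.41%: CCN2, LTBP2, SNAI2, BAMBI, FSTL3 and TGIF2 were higher, and CHRD, BMP6 and FN1, the fibronectin gene, were lower. EdgeR called 0 of the 62 with ATRi or with 5-Ph-IAA against DMSO and 0 in the interaction, where 4, 2 and 10 had an unadjusted p under 0.05, as did 877, 239 and 1317 of the 18049 genes tested. DESeq2 and limma-voom also called 0 of the 62 with either compound against DMSO. There DESeq2 called 102 genes in all with ATRi and 18 with 5-Ph-IAA. In the interaction DESeq2 called 2 of the 62, among 212 genes in all, and limma-voom called 0, among 9 in all.

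Likeness was measured as Pearson's r of log2(CPM + 1) over the 12 libraries, which share group means and depth, and is given as a description. Among 11440 genes with a mean of at least 5 CPM, those most like GDF15 were PRSS22 (r = 0.970), KRT19 (0.969) and FHL3 (0.967), and those most like SMAD3 were ADPRHL1 (0.973), GPRC5A (0.971) and MISP (0.970). BMP4 was closest to PSMD3 (0.982), LRWD1 (0.964) and YARS2 (0.964), and TGFB1 to CSK (0.910), AKT1S1 (0.905) and DGKZ (0.894). SMAD7 was closest to TSPAN17 (0.912), TUBGCP2 (0.911) and NOMO2 (0.904). For the low genes, TGFB2 was closest to FDX1 (0.959), CDC26 (0.927) and TMEM50A (0.915), and INHBE to KCNG1 (0.954), SMOX (0.953) and GOT1 (0.944).

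Among the 7 genes themselves, INHBE and BMP4 ran most strongly against each other (r = -0.89, 12 libraries), and TGFB2 and BMP4 ran most strongly together (r = 0.75). GDF15 and SMAD3 had r = 0.64, while GDF15 and SMAD7, with opposite relations to the mitochondrial share, had r = 0.03.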

How the data were processed

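Poly(A) RNA of 12 libraries was sequenced after column isolation, a DNase step and a directional library kit, per the labels' protocols. The authors deposited estimated counts per gene, made with Salmon 1.10.1. The submitters' processing notes also name STAR 2.7.9a, cutadapt 3.4, Trim Galore 0.6.7, SAMtools 1.17, FastQC 0.12.1 and build GRCh38.p14. Neither annotation release nor strand setting is given in these sources. The deposited expected counts include fractions (13.6% of values, 6.93% by over 0.01) and were rounded to whole numbers.

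Counts were filtered with filterByExpr (minimum count 10, minimum total 15), which kept 18049 genes with at least 99.89% of each library, and scaled by TMM. CPM are TMM-scaled. The quasi-likelihood test of edgeR 4.0.16, in R 4.3.3 with limma 3.58.1, was fitted to all 12 libraries with 1 mean per group, and p was adjusted by Benjamini-Hochberg over all genes tested (threshold 0.05). The median biological coefficient of variation was 0.214. Levels per length used exon lengths of a GENCODE annotation, matched for 58207 of 62700 genes. Group and set came from sample titles. The replicates are called biological with no word on separate cultures, so p-values measure only the spread between these libraries, which may be technical.

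Alternatives were DESeq2 1.42.0, limma-voom, DESeq2 size factors, total counts, no and stricter filters, fits of the compared groups, the set as a block, covariates for the mitochondrial share and the first within-group component, 8 libraries, and leaving out each library. On simulated data, 39% of 2-fold and 86% of 4-fold changes were recovered by edgeR in the combination compared with DMSO (3 false calls, 17777 genes), and 10% and 73% in the interaction (7 false calls, 17696 genes). Changes were placed only in genes above a mean count that TGFB2 and INHBE do not reach, so the rates do not cover those genes. No set or mitochondrial effect was simulated. The 9 genes, the pathway list and the rules were chosen with earlier results of these data known. Beside the 9, the rule named the 3 most alike per tested gene and up to 4 per role with the smallest p. PMEPA1, FN1, GFRAL, markers and overlapping genes were named outside it, after their values were seen. Counting error limits the low genes TGFB2, INHBE, INHBA and TGFBI, and INHBE also differed widely between libraries of the same group.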

Additional observations from a re-analysis of the deposited data

How the results depend on the processing

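The number of the 7 genes past the threshold moved with the setting. For the combination against DMSO, 3 passed, and the count was 5 without a count filter, 5 by DESeq2, 6 with the mitochondrial share as a covariate, 7 with the first within-group component as a covariate and 1 to 5 in the refits without 1 library. Apart from the block given next, the 6 remaining settings gave 2 or 3, and the stricter filter could not test TGFB2 and INHBE. These covariates called far more genes of every kind, 6449 and 6556 against 2370. The fit without a count filter called 1922 genes in all and DESeq2 3271. Against ATRi, 1 passed, with 0 without a count filter, 0 with 8 libraries, 2 in the fit of the compared groups, 2 with either covariate and 0 to 1 in the refits. Over all genes the main fit called 634. In the same order these settings called 502, 64, 970, 3188 (mitochondrial share), 3717 (component) and 134 to 866. Against 5-Ph-IAA, 1 passed, with 3 by DESeq2, 0 in the fit of the compared groups, 0 with 8 libraries, 4 with either covariate and 0 to 1 in the refits. Over all genes the main fit called 1699 here. In the same order these settings called 2557, 1033, 805, 5507 (mitochondrial share), 5567 (component) and 777 to 2030. With ATRi or 5-Ph-IAA against DMSO and in the interaction the count was 0 in every setting run. Of the 62 other pathway genes, 11 passed for the combination against DMSO, 28 with the mitochondrial covariate, 32 with the component covariate and 6 to 13 in the refits. The cause of these shifts was not tested.

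Libraries of the same set often deviated together, though not in every pair. Of 18 same-set pairs, 13 had deviations correlated above 0.1 (median 0.53, lowest -0.16), against a median of -0.31 for 36 pairs of different sets. Of 12 libraries, 10 correlated best with their own set. What the libraries of a set share is not stated, and the main fit has no term for the set. With the set as a replicate block, 7 of the 7 genes and 21 of the 62 other pathway genes passed for the combination against DMSO. The blocked fit called 4569 genes in all there, against 2370 in the main fit. Against ATRi 2 of the 7 passed, among 1980 genes in all (634 in the main fit). Against 5-Ph-IAA 3 of the 7 passed, among 3546 genes in all (1699 in the main fit). Under the block TGFB1, INHBE, BMP4 and SMAD7 passed against DMSO (edgeR adjusted p = 0.0383, 0.0154, 0.00765 and 0.00584), as did GDF15 against ATRi (0.0318) and 5-Ph-IAA (0.00601).

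Log2 fold changes that changed sign were all from values that had not passed. With 8 libraries, INHBE gave 1.01 and BMP4 -0.025 with 5-Ph-IAA against DMSO, SMAD7 -0.021 for the combination against 5-Ph-IAA, and the interaction 0.44 for TGFB2 and 0.37 for BMP4. The mitochondrial covariate gave 0.0058 for the interaction of BMP4 and 0.0060 for SMAD2 with the combination, and limma-voom 0.047 for the interaction of TGFB2. In the refits without 1 library, SMAD3 with ATRi ranged from -0.059 to 0.069. With 5-Ph-IAA against DMSO, GDF15 ranged from -0.027 to 0.80, INHBE from -1.48 to 0.74 and SMAD3 from -0.0090 to 0.16. For the combination against 5-Ph-IAA, TGFB1 ranged from -0.023 to 0.14 and SMAD7 from -0.24 to 0.51. The interaction ranged from -0.53 to 0.28 for TGFB2 and from -0.29 to 0.20 for BMP4. Low counts limit TGFB2, INHBE, INHBA and TGFBI, with at most 35 counts in a library.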
